A study of Mus musculus with 15 samples.

Results

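The 9 genes described here carry interferon-gamma sensing and its feedback in mouse skin. They are Ifngr1 and Ifngr2, Jak1 and Jak2, Irf1 and Irf8, Socs1, Ido1 and Acod1. They were chosen by name for these roles, with earlier results of these data known. All 9 were found in the deposited table by gene identifier, among 56059 genes, and all 9 passed the filter on low counts that left 18651 genes to test. Interferon-gamma is the cytokine by which T cells and natural killer cells activate macrophages and alert epithelium, and it is a known driver of tissue injury in graft-versus-host disease. It binds a receptor of Ifngr1, the ligand-binding chain, and Ifngr2, the accessory chain, to which the kinases Jak1 and Jak2 are bound. The active kinases start a signal that acts on gamma-activated sites (GAS) in promoters such as that of Irf1, and Irf1 in turn acts through interferon-stimulated response elements (ISRE). Socs1 is induced by the same signal and blocks the kinases, so that the response is self-limiting.

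The data are 15 RNA libraries of mouse skin after bone marrow transplantation, from a model of chronic graft-versus-host disease with hardening of the skin, where immune cells of the donor injure the tissues of the host. They fall into allogeneic recipients on both Wnt-C59 (5 mg/kg) and belumosudil (150 mg/kg; n = 4, called the combination here), allogeneic recipients on Wnt-C59 alone (5 mg/kg; n = 4), allogeneic recipients given the vehicle, 0.4% methylcellulose (n = 3, called allogeneic skin here), and syngeneic recipients given the same vehicle (n = 4, called syngeneic skin). Dosing by mouth ran daily between days 21 and 49 after transplantation. Wnt-C59 blocks porcupine, an acyltransferase without which cells cannot secrete Wnt proteins. Belumosudil is an inhibitor of ROCK2, a kinase of the cytoskeleton. All 4 groups were transplanted, no group received belumosudil alone, and the strains, ages and skin site are not given in the sources used here. The count columns of the combination carry a letter code that the labels do not spell out and were matched to it by elimination. The series title also names ruxolitinib, an inhibitor of Jak1 and Jak2, so the agents given to these 4 libraries rest on the group labels alone.

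Promoter sequences of 8 of the 9 genes were matched by symbol in RefSeq (build GRCm38.p6), all but Ido1, and the 250 bases before each start site were searched on both strands. The motif TTCNNNGAA, which reads the same on both strands, stood for GAS, and GAAA followed by any 2 bases and a further GAAA stood for ISRE. At the first start site, a GAS match was present in 2 of these 8 genes and an ISRE match in 1. Of 32851 windows over all genes, 7.02% held a GAS match and 2.98% an ISRE match. Those windows include further start sites of the same genes, so the counts and the shares are not on the same basis. The matches lay in the genes for both transcription factors and in the feedback inhibitor, and those windows are shown here because they hold the letters of the elements through which interferon-gamma and the interferon regulatory factors are known to act. Capitals mark the matches, and each window is given from its distal end to the base before the start site. In Irf1 (chr11:53769764-53770013, plus strand) the GAS match lay 90 to 82 bases upstream.
Irf1: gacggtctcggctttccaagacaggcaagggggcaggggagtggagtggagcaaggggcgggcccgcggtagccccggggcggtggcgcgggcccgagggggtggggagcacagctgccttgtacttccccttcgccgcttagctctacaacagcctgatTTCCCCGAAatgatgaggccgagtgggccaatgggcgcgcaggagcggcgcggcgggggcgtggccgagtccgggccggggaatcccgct
In Irf8 (chr8:120736108-120736357, plus strand) GAS matches lay 171 to 163 and 153 to 145 bases upstream.
Irf8: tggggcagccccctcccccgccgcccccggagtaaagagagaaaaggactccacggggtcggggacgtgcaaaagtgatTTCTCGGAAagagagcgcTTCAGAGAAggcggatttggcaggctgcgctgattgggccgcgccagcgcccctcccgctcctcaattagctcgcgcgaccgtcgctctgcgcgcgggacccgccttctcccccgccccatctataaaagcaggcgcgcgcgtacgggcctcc
In Socs1 (chr16:10785537-10785786, minus strand) ISRE matches lay 83 to 74 and 77 to 68 bases upstream, so that they overlap by the letters they share.
Socs1: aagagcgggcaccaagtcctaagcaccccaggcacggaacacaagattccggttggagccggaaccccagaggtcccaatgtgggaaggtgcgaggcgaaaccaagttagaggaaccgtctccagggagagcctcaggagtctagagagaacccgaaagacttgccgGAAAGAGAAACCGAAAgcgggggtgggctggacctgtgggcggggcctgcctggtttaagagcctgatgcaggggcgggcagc
Each match is a match of letters and not a measured binding site, and the windows of Ifngr1, Ifngr2, Jak1, Jak2 and Acod1 held neither motif. The second start sites that RefSeq lists for Irf1 and Irf8 held none either.

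Total estimated counts per library ran from 18.99 to 28.78 M in treated skin and from 16.26 to 20.39 M in vehicle skin. Levels below are in CPM, a gene's count set against its library's total with TMM scaling, and a call means that edgeR's quasi-likelihood test gave a p under 0.05 after Benjamini-Hochberg adjustment over all genes. For the tissue label, the summed level of 8 keratinocyte markers was between 12291 and 52584 CPM in every library, and none of the 8 was at 0 in all libraries. This sum was 12291 to 19654 CPM in syngeneic skin and 25123 to 43181 CPM in allogeneic skin. It was 31004 to 44639 CPM under the combination and 31190 to 52584 CPM under Wnt-C59. Against syngeneic skin, 3 of the 8 markers rose and 0 fell in allogeneic skin. In that contrast 3 rose and 2 fell under the combination, and 5 rose and 1 fell under Wnt-C59. The part of keratinocyte content in the levels of the genes described here was not tested. Fractions made up 44.76% to 60.62% of the non-zero values in treated libraries, against 31.07% to 34.39% in vehicle libraries. Treatment and whatever else divided treated from vehicle libraries cannot be told apart. In whole skin, a lower level can come from fewer cells of a type or from less RNA per cell, and these cannot be told apart either. The labels do not say whether replicates are separate animals, so p-values measure the spread between these libraries only.

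Allogeneic skin was compared with syngeneic skin to see how the foreign graft changed the pathway. All 9 genes rose, and for all 9 the allogeneic libraries lay above every syngeneic library. Over all genes tested, 29.8% were called and 14.6% rose, and 16.7% had allogeneic libraries wholly above syngeneic ones. The median log2 fold change of the 9 genes was 2.42, against −0.07 over all genes. The receptor chains and kinases rose by 1.65-fold to 2.39-fold, the transcription factors and Socs1 by 5.36-fold to 7.71-fold, and Ido1 and Acod1 were close to absent in syngeneic skin.

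Among the receptor chains, Ifngr1 was at 114, 102 and 141 CPM in allogeneic skin, against 61.4, 50.8, 63.6 and 47.6 CPM in syngeneic skin. The allogeneic libraries were all higher than the syngeneic ones, at 119 ± 20.1 CPM (SD, n = 3) against 55.9 ± 7.84 CPM (SD, n = 4). On the log2 scale Ifngr1 rose by 1.09 (SE 0.14, adjusted p = 7.1e-05). Ifngr2, whose level is limiting for the response in some T cells, was at 59.2, 67.1 and 65.1 CPM in allogeneic skin, against 40.6, 36.4, 36.2 and 41.4 CPM in syngeneic skin. It was the smallest of the 9 changes, and its 3 allogeneic libraries still stood clear of the syngeneic range (log2 fold change 0.72, SE 0.13, adjusted p = 0.0011).

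As for the kinases, Jak1, which is shared with type I interferon receptors and many cytokine receptors, was at 220, 191 and 262 CPM in allogeneic skin, against 129, 100, 110 and 99.1 CPM in syngeneic skin. Every allogeneic library was above every syngeneic one (log2 fold change 1.04, SE 0.16, adjusted p = 0.00037). Jak2, the kinase bound to Ifngr2, was at 139, 73.1 and 123 CPM in allogeneic skin, against 56.8, 47.3, 42.2 and 41 CPM in syngeneic skin. Allogeneic library 2 was the low one and still above the highest syngeneic library. Jak2 rose by 1.25 on the log2 scale (SE 0.21, adjusted p = 0.00053), a call that was lost with an adipocyte score as a covariate (0.79, adjusted p = 0.089).

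**Figure D1:**
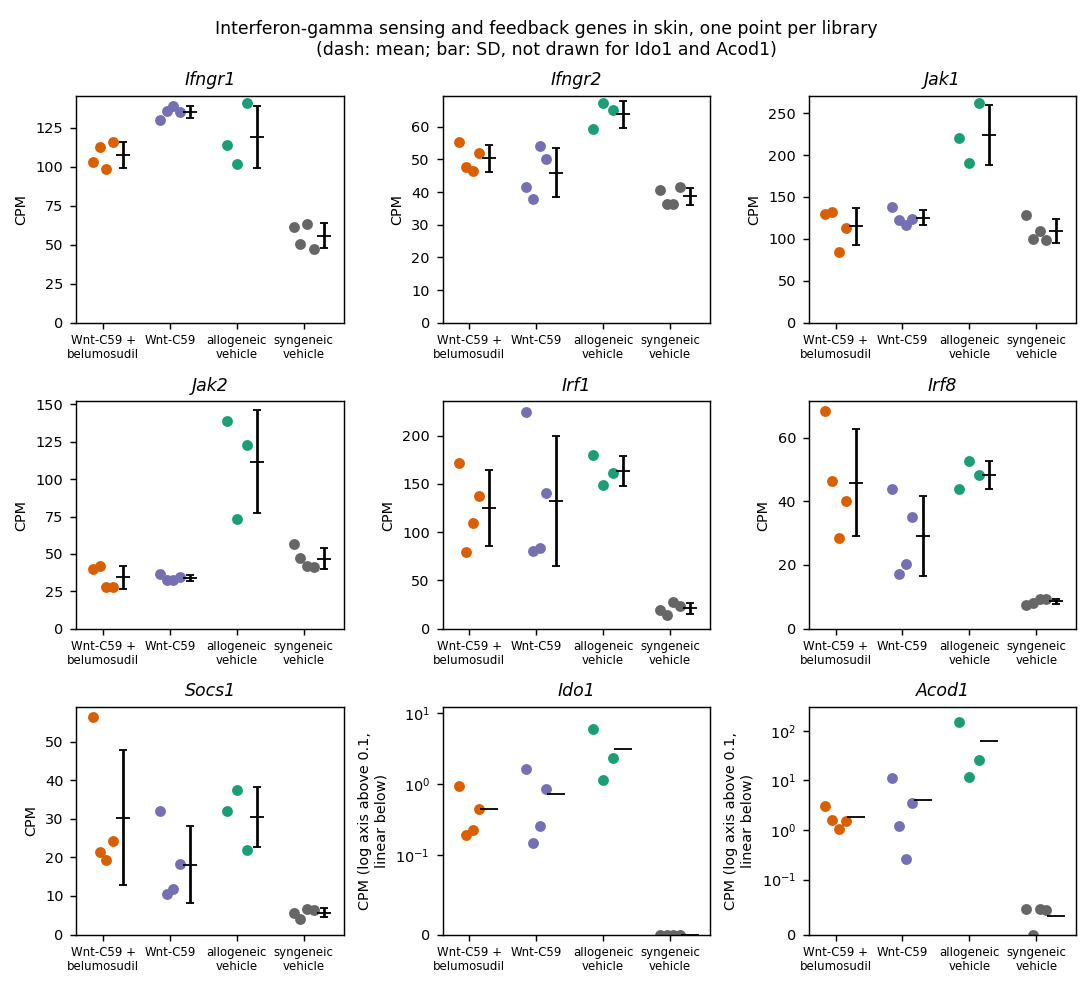
Level of each of the 9 genes in CPM in each of the 15 libraries, by group (points: libraries, dash: group mean, bar: SD with n = 3 for allogeneic vehicle and n = 4 for the others, log axes for Ido1 and Acod1 with no SD drawn). Allogeneic vehicle libraries stand above syngeneic ones in all 9 panels, Jak1 and Jak2 are lower in both treated groups, and Irf1 in treated skin spreads from 79.6 to 225 CPM.

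Irf1, an early target of the pathway and a transcription factor that carries the response to secondary targets, was at 180, 149 and 161 CPM in allogeneic skin, against 18.9, 14.7, 27.5 and 23.7 CPM in syngeneic skin. The groups were far apart, and Irf1 was close to uniform among allogeneic libraries, with a coefficient of variation of 9.49%. Irf1 rose by 2.95 on the log2 scale (SE 0.35, adjusted p = 5.5e-05). Irf8, a factor of macrophage and dendritic cell development that interferon-gamma also induces in macrophages, was at 43.9, 52.6 and 48.2 CPM in allogeneic skin, against 7.57, 8.07, 9.25 and 9.26 CPM in syngeneic skin. No library of either group came near the other group (log2 fold change 2.50, SE 0.31, adjusted p = 6.9e-05).

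Socs1, the feedback inhibitor of the kinases, was at 32.1, 37.4 and 22 CPM in allogeneic skin, against 5.64, 4.08, 6.73 and 6.26 CPM in syngeneic skin. All allogeneic libraries were higher, with library 3 the lowest of them (log2 fold change 2.42, SE 0.43, adjusted p = 0.00084).

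The enzymes had the widest range. Ido1 breaks down tryptophan to kynurenine and restrains T cells, and Acod1 makes itaconate from cis-aconitate in activated macrophages and neutrophils. Ido1 was at 5.89, 1.14 and 2.31 CPM in allogeneic skin and had 0 counts in all 4 syngeneic libraries. Against a floor of 3 counts per syngeneic library it was at least 22.8-fold higher (adjusted p = 0.00057), on 157 counts in all allogeneic libraries together. Acod1 was at 154, 11.9 and 25.9 CPM in allogeneic skin, against 0.0459, 0, 0.0458 and 0.0441 CPM in syngeneic skin. Allogeneic library 1 was far above the others, and all 3 were far above syngeneic skin, where the gene had 3 counts in total. The ratio of levels was 1837 (95% counting interval 628 to 8911), and the test gave an adjusted p of 0.00037. Without allogeneic library 1 both enzymes were still called, at a fitted log2 fold change of 8.88 against 10.63 for Acod1 and of 8.16 against 8.99 for Ido1, values that depend on the prior count. Bounds and intervals of this kind cover counting error only.

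Markers of immune cells rose in the same libraries. All 8 general leukocyte markers, all 10 T cell markers and all 10 macrophage markers rose, and 2 of 8 dendritic cell markers rose while 2 fell. The summed level of the macrophage markers was 3577 to 4481 CPM in allogeneic skin, against 418 to 801 CPM in syngeneic skin. The leukocyte sum was 731 to 1074 CPM in allogeneic skin, against 151 to 265 CPM in syngeneic skin. With a leukocyte score as a covariate, none of the 9 genes was called, and 29 genes were called over the whole table. The score moves with the groups, and the part of cell numbers in these rises was not tested further. Fibroblast markers moved the other way: 4 of 6 fell, with a summed level of 1391 to 2646 CPM in allogeneic skin, against 4288 to 10142 CPM in syngeneic skin, and 5 of 6 rose in each treated group against allogeneic skin, with sums of 3461 to 7163 CPM under the combination and 3706 to 7148 CPM under Wnt-C59. Their part in the levels of the 9 genes was not tested. For Acod1, the summed level of 7 neutrophil markers ran in the same order as the gene among allogeneic libraries, at 3852, 134 and 628 CPM in libraries 1, 2 and 3.

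The cytokine and its known machinery rose with the 9 genes. Ifng itself was at 3.58, 2.87 and 3.44 CPM in allogeneic skin, against 0.0459, 0, 0.0915 and 0.0441 CPM in syngeneic skin. It was detected in every allogeneic library and on 4 counts in all syngeneic libraries together (log2 fold change 6.00, SE 0.86, adjusted p = 0.00018). Among 12 genes for interferon-gamma production, 8 rose and 4 did not pass, with a median log2 fold change of 2.83. Those that rose included the interleukin-18 receptor chains Il18r1 (log2 fold change 1.92, adjusted p = 3.1e-05) and Il18rap (3.08, adjusted p = 0.00012) and the interleukin-12 receptor chain Il12rb1 (2.57, adjusted p = 0.00016).

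Of 8 other signal transducers, 6 rose and 2 did not pass. Irf2, which competes with Irf1 for the same elements, had a log2 fold change of 1.23 (adjusted p = 3.5e-05), and Stat3 one of 1.29 (adjusted p = 0.0013). Nmi, an interferon-induced protein, had one of 1.97 (adjusted p = 0.0018). All 12 direct outputs rose, with a median of 2.84. They included Cd274, the checkpoint ligand PD-L1 (log2 fold change 3.58, adjusted p = 6.4e-05), the adhesion molecule Icam1 (1.91, adjusted p = 9.8e-05) and the chemokine Cxcl9 (6.58, adjusted p = 0.00013).

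Of the 10 other negative regulators, 5 rose, 1 fell and 4 did not pass. On the log2 scale the phosphatase Ptpn6 rose by 1.07 (adjusted p = 0.0003), and the Socs1 relatives Socs2 and Cish rose by 1.93 (adjusted p = 0.00047) and 0.97 (adjusted p = 0.0019). Around Ido1 and Acod1, most enzymes and carriers of the kynurenine and citrate routes did not pass. Of these 11 genes, 2 rose, Nfe2l2 (log2 fold change 0.84, adjusted p = 0.0011), a stress-response factor that itaconate activates, and Ido2 (2.89, adjusted p = 0.019), a relative of Ido1. With the adipocyte score Stat3, Socs2, Cish, Nfe2l2 and Ido2 were not called (adjusted p = 0.078, 0.065, 0.1, 0.11 and 0.59), and 12.8% of all genes were. The call of Ido2 was also lost without allogeneic library 1 or 3 (adjusted p = 0.069 and 0.052).

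**Figure D2:**
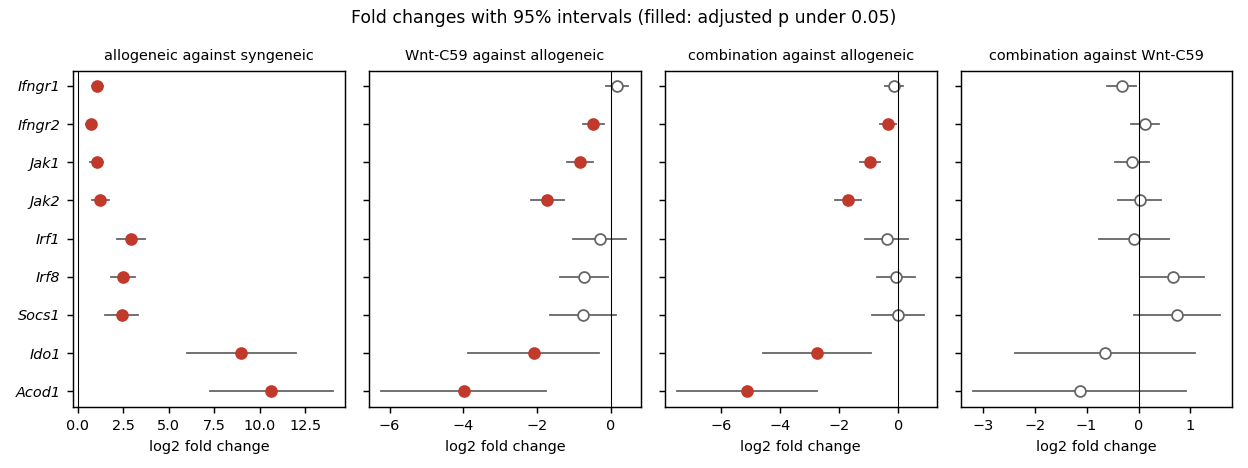
Log2 fold change of each of the 9 genes in the 4 main comparisons (points), with 95% intervals (lines) and filled points for genes called at an adjusted p under 0.05. All 9 are called in allogeneic against syngeneic skin, 5 in each treated group against allogeneic skin, and 0 between the treated groups.

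Each treated group was compared with allogeneic skin to see what porcupine inhibition, alone or with belumosudil, changed. Both comparisons share the same 3 allogeneic libraries. The kinases and the enzymes fell, while Irf1, Irf8, Socs1 and Ifngr1 did not pass in either comparison. Under the combination 5 of the 9 genes fell and 0 rose, where 54.5% of all genes were called and 27.4% fell. Under Wnt-C59 alone the count was also 5 that fell and 0 that rose, where 50.8% of all genes were called and 26.2% fell. The genes called were Ifngr2, Jak1, Jak2, Ido1 and Acod1 in both. The libraries lay wholly below the allogeneic ones for all 5 of these under the combination, where this held for 26.4% of all genes, and for 4 of them under Wnt-C59, where it held for 27.1%. The median log2 fold change of the 9 was −0.39 under the combination, against 0.01 over all genes, and −0.75 under Wnt-C59, against 0.00 over all genes.

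Jak2 was at 39.8, 42.1, 28.2 and 27.7 CPM under the combination and at 36.8, 32.3, 32.5 and 34.5 CPM under Wnt-C59, against 139, 73.1 and 123 CPM in allogeneic skin. All 8 treated libraries lay below every allogeneic library. Jak2 had a log2 fold change of −1.70 under the combination (SE 0.21, adjusted p = 2.1e-05) and −1.72 under Wnt-C59 (SE 0.21, adjusted p = 2.6e-05). Jak2 has the lowest GC content of the 9 genes, 44.3% of its longest transcript. With the trend of fold changes with GC content over the whole table removed, the log2 fold change of Jak2 was −1.03 under the combination (adjusted p = 0.0015) and −1.14 under Wnt-C59 (adjusted p = 0.00084). It was still called in both.

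Jak1 was at 130, 132, 84.9 and 113 CPM under the combination and at 138, 122, 117 and 124 CPM under Wnt-C59, against 220, 191 and 262 CPM in allogeneic skin. No treated library reached the allogeneic range. For Jak1 the log2 fold change was −0.96 under the combination (SE 0.16, adjusted p = 0.00022) and −0.84 under Wnt-C59 (SE 0.16, adjusted p = 0.00075). Without the GC trend these values were −0.71 for the combination (adjusted p = 0.0034) and −0.62 for Wnt-C59 (adjusted p = 0.0081). With an adipocyte score as a further term, both kinases lost their call under the combination (adjusted p = 0.091 for Jak1 and 0.077 for Jak2), and under Wnt-C59 Jak1 lost it (adjusted p = 0.078) while Jak2 did not (0.027). Of the 9 genes, 0 were then called under the combination, where 18.3% of all genes were, and 1 under Wnt-C59, where 22.3% were. All 6 adipocyte markers rose in both treated groups, with a summed level of 1142 to 1691 CPM under the combination and 614 to 1736 CPM under Wnt-C59, against 250 to 494 CPM in allogeneic skin, and their part in these falls was not tested.

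The receptor chains differed in how they compared with allogeneic skin. Ifngr1 was at 103, 113, 98.6 and 116 CPM under the combination and at 130, 136, 139 and 135 CPM under Wnt-C59, against 114, 102 and 141 CPM in allogeneic skin. Both treated groups overlapped with allogeneic skin, and neither difference passed (log2 fold change −0.14, adjusted p = 0.39 for the combination, and 0.18, adjusted p = 0.3 for Wnt-C59). The 95% interval of the log2 difference was −0.44 to 0.15 for the combination and −0.12 to 0.48 for Wnt-C59.

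Ifngr2 was at 55.2, 47.6, 46.5 and 51.8 CPM under the combination and at 41.6, 37.9, 54.2 and 50.1 CPM under Wnt-C59, against 59.2, 67.1 and 65.1 CPM in allogeneic skin. All treated libraries were lower, by a margin that was small beside that of the kinases. Its log2 fold change was −0.34 under the combination (SE 0.13, adjusted p = 0.043) and −0.47 under Wnt-C59 (SE 0.13, adjusted p = 0.0091). The call under the combination was lost without allogeneic library 2 or 3 (adjusted p = 0.12 and 0.092) and without combination library 3, 4 or 5 (adjusted p = 0.084, 0.092 and 0.055).

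Acod1 was at 3.1, 1.59, 1.07 and 1.49 CPM under the combination and at 11.1, 1.19, 0.26 and 3.56 CPM under Wnt-C59, against 154, 11.9 and 25.9 CPM in allogeneic skin. Every treated library was below the lowest allogeneic one, though Wnt-C59 library 1 came close to it. Acod1 had a log2 fold change of −5.12 under the combination (SE 1.09, adjusted p = 0.0017) and −3.99 under Wnt-C59 (SE 1.03, adjusted p = 0.0064). Allogeneic library 1 carries much of this size. Without it the values were −3.37 for the combination (adjusted p = 0.009) and −2.23 for Wnt-C59, where the call was lost (adjusted p = 0.061). Without Wnt-C59 library 1, the highest of its group, the value for Wnt-C59 was −5.24. The neutrophil sum was 21.5 to 113 CPM under the combination and 24 to 148 CPM under Wnt-C59, against 134 to 3852 CPM in allogeneic skin, where library 1 was also the highest. Its part in the result for Acod1 was not tested.

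Ido1 was at 0.931, 0.192, 0.226 and 0.452 CPM under the combination and at 1.64, 0.149, 0.26 and 0.855 CPM under Wnt-C59, against 5.89, 1.14 and 2.31 CPM in allogeneic skin. Combination libraries all lay below allogeneic ones, while Wnt-C59 library 1 lay inside the allogeneic range. Ido1 had a log2 fold change of −2.74 under the combination (SE 0.83, adjusted p = 0.015) and −2.09 under Wnt-C59 (SE 0.81, adjusted p = 0.049). These levels rest on 42 counts in the combination, 58 under Wnt-C59 and 157 in allogeneic skin. The call under Wnt-C59 was lost without either allogeneic library 1 or 3 (log2 fold change −1.24, adjusted p = 0.28, and −2.27, adjusted p = 0.068). It was also lost without Wnt-C59 library 2, 4 or 5 (adjusted p = 0.099, 0.11 and 0.078), without the GC trend (adjusted p = 0.094) and without the filter on low counts (adjusted p = 0.062). For the combination it was lost without allogeneic library 1 (log2 fold change −1.90, adjusted p = 0.098). Leaving out the highest treated library moved the other way, to −3.38 without combination library 2 and to −2.86 without Wnt-C59 library 1.

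The transcription factors and Socs1 did not pass in either comparison, and some treated libraries lay well below the allogeneic range. Irf1 was at 172, 79.6, 110 and 137 CPM under the combination and at 225, 80.8, 84.1 and 141 CPM under Wnt-C59, against 180, 149 and 161 CPM in allogeneic skin. The treated groups spread widely around the narrow allogeneic group, and the highest library of all was Wnt-C59 library 1. The log2 difference was −0.39 under the combination (adjusted p = 0.34, 95% interval −1.12 to 0.33) and −0.30 under Wnt-C59 (adjusted p = 0.49, interval −1.03 to 0.42). These intervals leave room for a fall of up to about the size seen for Jak1. With 1 library left out, the Irf1 difference ran from −0.59 to −0.23 under the combination and from −0.68 to −0.13 under Wnt-C59. Without the GC trend it was −0.60 under Wnt-C59 (adjusted p = 0.18). Irf1 was not called in any of these fits.

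Irf8 was at 68.3, 46.4, 28.5 and 40.2 CPM under the combination and at 43.9, 17.2, 20.3 and 35.1 CPM under Wnt-C59, against 43.9, 52.6 and 48.2 CPM in allogeneic skin. Combination libraries lay on both sides of the allogeneic range, whereas Wnt-C59 library 1 equalled its lowest value to 3 digits and the other Wnt-C59 libraries lay below it. For Irf8 the log2 difference was −0.07 under the combination (adjusted p = 0.85, 95% interval −0.72 to 0.58) and −0.73 under Wnt-C59 (adjusted p = 0.057, interval −1.38 to −0.08). Under Wnt-C59 Irf8 was called by DESeq2 (adjusted p = 0.036), by limma-voom (0.033), with RLE scaling (0.048), without the GC trend (log2 fold change −0.92, adjusted p = 0.028) and without Wnt-C59 library 1 (adjusted p = 0.013). Dendritic cell markers, of a cell type that uses Irf8, rose for 5 of 8 genes under the combination and 3 of 8 under Wnt-C59. Their summed level was 71.8 to 136 CPM under the combination and 44.4 to 96.6 CPM under Wnt-C59, against 38.1 to 80.1 CPM in allogeneic skin, and its part in the level of Irf8 was not tested.

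Socs1 was at 56.3, 21.3, 19.3 and 24.3 CPM under the combination and at 32.1, 10.4, 11.8 and 18.2 CPM under Wnt-C59, against 32.1, 37.4 and 22 CPM in allogeneic skin. Library 2 of the combination and library 1 of Wnt-C59 stood above the rest of their groups. For Socs1 the log2 difference was −0.01 under the combination (adjusted p = 0.99, 95% interval −0.90 to 0.88) and −0.75 under Wnt-C59 (adjusted p = 0.15, interval −1.64 to 0.13). Without Wnt-C59 library 1 Socs1 was called lower under Wnt-C59 (log2 fold change −1.18, adjusted p = 0.021). Socs1 has the highest GC content of the 9 genes, 58.8%, and without the GC trend it was called lower under Wnt-C59 (−1.44, adjusted p = 0.015) and not under the combination (−0.86, adjusted p = 0.11).

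Upstream of these genes, Ifng was at 0.97, 0.289, 0.339 and 0.452 CPM under the combination and at 1.23, 0.298, 0.0521 and 0.855 CPM under Wnt-C59, against 3.58, 2.87 and 3.44 CPM in allogeneic skin. All treated libraries were lower than all allogeneic ones (log2 fold change −2.65, adjusted p = 0.0044 for the combination, and −2.42, adjusted p = 0.0082 for Wnt-C59). Of the 12 production genes, 9 fell under the combination, where 27.4% of all genes fell, and 7 under Wnt-C59, where 26.2% did. Production genes that rose numbered 0 in both. Eomes, a transcription factor of cytotoxic lymphocytes, fell by 3.23 on the log2 scale under the combination (adjusted p = 0.0011) and by 2.59 under Wnt-C59 (adjusted p = 0.0045). Its levels were low, at means of 0.268 CPM under the combination, 0.428 CPM under Wnt-C59 and 2.6 CPM in allogeneic skin. Il18rap fell by 1.87 under the combination (adjusted p = 0.0013) and by 2.33 under Wnt-C59 (adjusted p = 0.00034). Without Wnt-C59 library 1 the log2 fold change under Wnt-C59 was −3.01 for Ifng and −3.36 for Eomes. Lymphocyte markers fell in the same comparisons. Of 6 cytotoxic lymphocyte markers tested, 4 fell under the combination and 6 under Wnt-C59, and of 10 T cell markers 5 fell under the combination and 8 under Wnt-C59. The cytotoxic sum was 14.6 to 34.1 CPM under the combination and 11.8 to 26.7 CPM under Wnt-C59, against 39.2 to 75 CPM in allogeneic skin. With the leukocyte score as a covariate Ifng was still called under the combination (log2 fold change −2.08, adjusted p = 0.02) and not under Wnt-C59 (−0.95, adjusted p = 0.44). Eomes (−1.30, adjusted p = 0.34) and Il18rap (−1.03, adjusted p = 0.076) also lost their call under Wnt-C59 then. The part of lymphocyte numbers in these falls was not tested further.

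Against Ptprc, the leukocyte antigen CD45, the levels of the transcription factors and Socs1 were higher in treated than in allogeneic skin, but against the sum of all 8 leukocyte markers they were not set apart. Ptprc averaged 40.2 ± 11.5 CPM under the combination and 32.2 ± 9.1 CPM under Wnt-C59 (SD, n = 4 each), against 126 ± 20.3 CPM in allogeneic skin (SD, n = 3) and 29 ± 4.72 CPM in syngeneic skin (SD, n = 4). The ratio of Irf1 to Ptprc was 2.04 to 4.51 under the combination and 2.86 to 6.11 under Wnt-C59, against 1.13 to 1.44 in allogeneic skin and 0.531 to 0.938 in syngeneic skin. For Irf8 it was 0.848 to 1.37 under the combination and 0.607 to 1.19 under Wnt-C59, against 0.334 to 0.508 in allogeneic skin. The ratio of Socs1 to Ptprc was 0.513 to 1.13 under the combination and 0.367 to 0.871 under Wnt-C59, against 0.154 to 0.361 in allogeneic skin. Over Ptprc, treated and allogeneic ranges did not overlap for these 3 genes, by a narrow margin for Socs1. The share of all genes for which this holds was not counted. Ptprc itself was lower in treated skin, so any gene that fell less than Ptprc has a higher ratio there. Over the 8-marker leukocyte sum the treated and allogeneic ranges overlapped for all 3 genes. There Irf1 had a ratio of 0.0906 to 0.25 under the combination and 0.171 to 0.405 under Wnt-C59, against 0.168 to 0.204 in allogeneic skin. Irf8 had 0.0528 to 0.065 under the combination and 0.0406 to 0.0789 under Wnt-C59, against 0.0408 to 0.072 in allogeneic skin. For Socs1 these ranges were 0.0242 to 0.0536 under the combination and 0.024 to 0.0577 under Wnt-C59, against 0.0245 to 0.0511 in allogeneic skin. These ratios were not tested, and neither was the part of GC content in them.

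**Figure D3:**
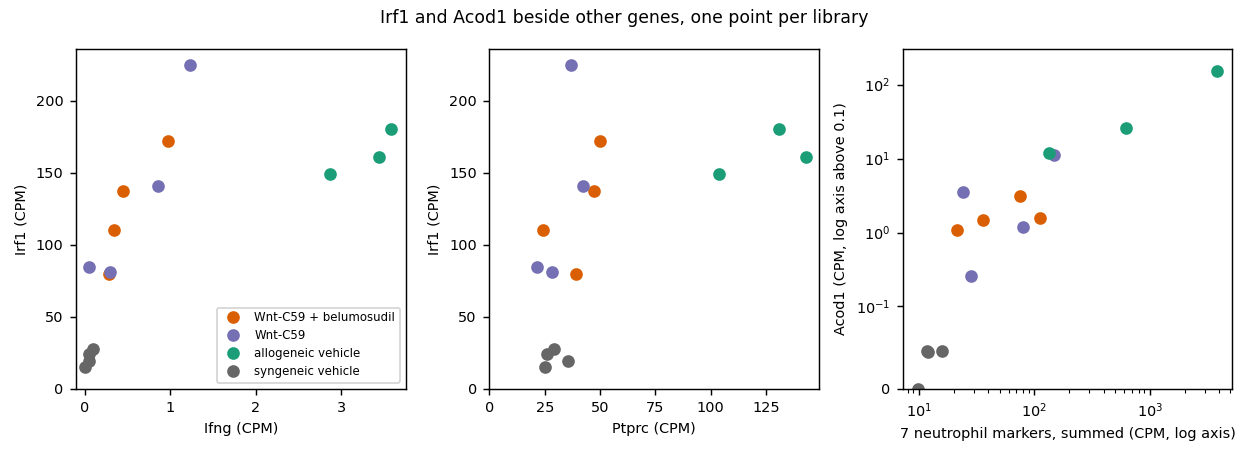
Irf1 against Ifng, Irf1 against Ptprc, and Acod1 against the sum of 7 neutrophil markers, in CPM with 1 point per library (log axes in the panel for Acod1). Treated libraries reach Irf1 levels of 79.6 to 225 CPM at Ifng levels of at most 1.23 CPM, whereas allogeneic vehicle libraries have 149 to 180 CPM of Irf1 at 2.87 CPM of Ifng or more.

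The direct outputs were called only in part in treated skin. Of these 12 genes, 6 fell under the combination, where 27.4% of all genes fell, and 6 under Wnt-C59, where 26.2% did. The count that rose was 0 in both. The genes not called were not shown to be unchanged, and their fold changes lay in both directions. Cd274 fell by 2.57 on the log2 scale under the combination (adjusted p = 0.00017) and by 1.99 under Wnt-C59 (adjusted p = 0.0012, and by 2.61 without Wnt-C59 library 1), and Nlrc5, the activator of MHC class I genes, fell by 1.52 under the combination (adjusted p = 0.00033) and by 1.09 under Wnt-C59 (adjusted p = 0.0038). Nos2, the inducible nitric oxide synthase, fell by 2.43 under the combination (adjusted p = 0.0087) and by 3.03 under Wnt-C59 (adjusted p = 0.0029). Cxcl9 averaged 35.8 ± 14.4 CPM under the combination and 57.9 ± 56.7 CPM under Wnt-C59 (SD, n = 4 each), against 433 ± 215 CPM in allogeneic skin (SD, n = 3). Cxcl9 was called lower in both (adjusted p = 0.0011 for the combination and 0.0044 for Wnt-C59). The immunoproteasome subunit Psmb9 averaged 206 ± 89.7 CPM under the combination and 182 ± 71 CPM under Wnt-C59, against 170 ± 57.4 CPM in allogeneic skin, and did not pass (adjusted p = 0.58 for the combination and 0.87 for Wnt-C59). Tap1, a subunit of the peptide transporter, averaged 345 ± 105 CPM under the combination and 427 ± 197 CPM under Wnt-C59, against 272 ± 16.6 CPM in allogeneic skin, and did not pass (adjusted p = 0.37 for the combination and 0.1 for Wnt-C59).

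Of the 8 other transducers, 3 fell and 2 rose under the combination, and 3 fell and 0 rose under Wnt-C59. The adaptor Crkl fell by 0.90 under the combination (adjusted p = 0.00018) and by 0.85 under Wnt-C59 (adjusted p = 0.00033) on the log2 scale. Cebpb rose under the combination (log2 fold change 1.13, adjusted p = 0.0021), a call that was lost without the GC trend (0.03, adjusted p = 0.93). Of the 10 negative regulators, 4 fell and 1 rose under the combination, and 5 fell and 1 rose under Wnt-C59. Pias3, an inhibitor of Stat3, was the one that rose, with a log2 fold change of 0.83 under the combination (adjusted p = 0.0012) and of 1.41 under Wnt-C59 (adjusted p = 3.3e-05), and without the GC trend it was not called under the combination (0.30, adjusted p = 0.22). Pias1, another member of the Pias family, fell by 0.82 under the combination (adjusted p = 0.00021) and by 0.70 under Wnt-C59 (adjusted p = 0.00084), and its direction turned without the GC trend (0.10 for the combination and 0.08 for Wnt-C59). Over all genes, 54.5% were called under the combination and 50.8% under Wnt-C59. The counts of transducers and negative regulators called are not far from these shares.

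Around the enzymes, Slc25a1, the mitochondrial citrate carrier, had a log2 fold change of 2.07 under the combination (adjusted p = 0.00065) and of 2.78 under Wnt-C59 (adjusted p = 0.00012). With the adipocyte score in the model it was no longer called under the combination (log2 fold change 0.52, adjusted p = 0.52). Of the 11 kynurenine and itaconate neighbours, 3 rose and 2 fell under the combination, and 5 rose and 1 fell under Wnt-C59. These counts are near the share over all genes, of which 54.5% were called under the combination and 50.8% under Wnt-C59. Afmid, which carries out the step after Ido1, rose by 1.07 under Wnt-C59 (adjusted p = 0.0024). Among immune markers, all 10 macrophage markers fell under Wnt-C59 and 6 of 10 under the combination. Their summed level was 1257 to 2430 CPM under the combination and 1059 to 1721 CPM under Wnt-C59, against 3577 to 4481 CPM in allogeneic skin. The leukocyte sum overlapped under the combination, at 440 to 1050 CPM, and was lower under Wnt-C59, at 423 to 556 CPM, against 731 to 1074 CPM in allogeneic skin. With a leukocyte score as a covariate, 3 of the 9 genes were called under the combination, where 51.7% of all genes were called, and 1 under Wnt-C59, where 35.1% were.

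**Figure D4:**
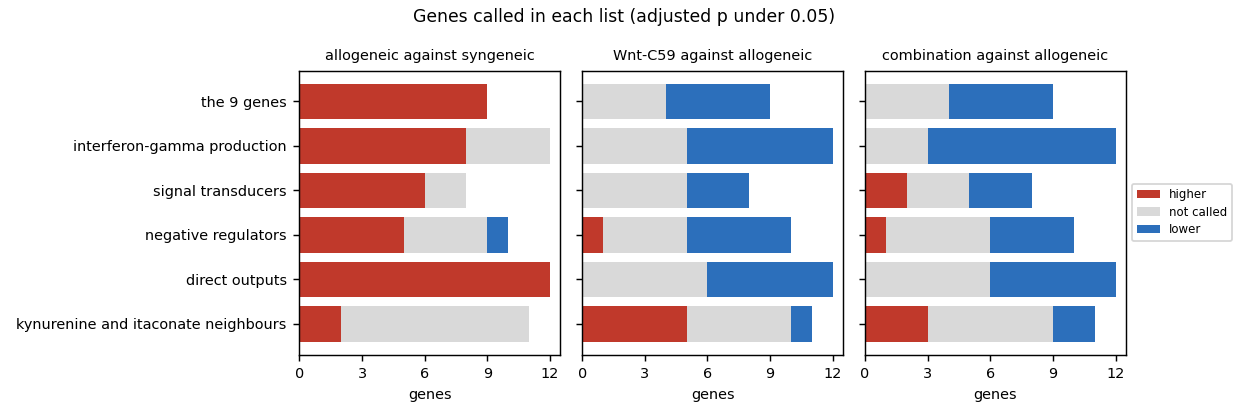
Number of genes called higher, called lower or not called among the 9 genes and in 5 lists of neighbouring genes, in 3 comparisons. The 12 direct outputs are all higher in allogeneic against syngeneic skin, and 6 of them are lower in each treated group.

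The combination was compared with Wnt-C59 alone to see what belumosudil added. None of the 9 genes was called by edgeR, DESeq2 or limma-voom, where edgeR called 0.231% of all genes and DESeq2 called 1516 genes. The lowest adjusted p-values of the 9 by edgeR were those of Ifngr1 and Irf8, and neither passed. Ifngr1 had a log2 difference of −0.32 (95% interval −0.60 to −0.05, adjusted p = 0.18). Irf8 had one of 0.66 (interval 0.05 to 1.26, adjusted p = 0.21). Ifngr1 was the one gene whose combination libraries all lay below the Wnt-C59 libraries, at 98.6 to 116 CPM against 130 to 139 CPM, and such separation downward was found for 7.28% of all genes.

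For the other genes the treated groups overlapped. The kinases had log2 differences near 0, with intervals of −0.45 to 0.20 for Jak1 and −0.40 to 0.44 for Jak2. For Irf1 the difference was −0.09 (interval −0.76 to 0.58), and for Socs1 it was 0.74 (interval −0.08 to 1.57). Socs1 in this comparison rests on combination library 2, without which the difference was 0.26 (adjusted p = 0.7). For the enzymes the intervals were wide, −2.39 to 1.08 for Ido1 and −3.19 to 0.92 for Acod1, so that a several-fold lower level under the combination could not be told from no difference at these counts.

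Treated skin was also compared with syngeneic skin, to see which genes were still apart from a transplant without a foreign graft. Irf1, Irf8, Socs1, Ifngr1, Ido1 and Acod1 remained higher in both treated groups, while Jak1 and Jak2 did not pass in either. Under the combination 7 of the 9 genes rose and 0 fell, where 54.1% of all genes were called and 26.9% rose. Under Wnt-C59 6 rose and 0 fell, where 53.1% of all genes were called and 26% rose. The genes that rose had treated libraries wholly above the syngeneic ones, which held for 23.7% of all genes under the combination and 24.6% under Wnt-C59. Ifngr2 made the difference, with a log2 fold change of 0.38 under the combination (adjusted p = 0.019) and 0.25 under Wnt-C59 (adjusted p = 0.11). The call of Ifngr2 under the combination was lost without combination library 2 (adjusted p = 0.06), and under Wnt-C59 Ifngr2 was called without Wnt-C59 library 2 (adjusted p = 0.045).

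Irf1 averaged 125 ± 39.4 CPM under the combination and 133 ± 67.5 CPM under Wnt-C59, against 21.2 ± 5.6 CPM in syngeneic skin (SD, n = 4 each). On the log2 scale it was higher by 2.56 under the combination (SE 0.33, adjusted p = 3.5e-05) and by 2.65 under Wnt-C59 (SE 0.34, adjusted p = 4e-05). Every treated library was above the highest syngeneic library, by a wide margin. Irf8 was higher by 2.42 (SE 0.30, adjusted p = 2.2e-05) under the combination and by 1.77 (SE 0.29, adjusted p = 0.00023) under Wnt-C59. Socs1 was higher by 2.42 (SE 0.41, adjusted p = 0.00024) under the combination and by 1.67 (SE 0.40, adjusted p = 0.0032) under Wnt-C59. Ifngr1 was higher by 0.95 (adjusted p = 4.2e-05) under the combination and by 1.27 (adjusted p = 1.2e-05) under Wnt-C59. Of the direct outputs, 10 of 12 rose above syngeneic skin in each treated group and 0 fell, with a median log2 fold change of 1.87 under the combination and 2.05 under Wnt-C59. Psmb9 rose by 2.55 under the combination (adjusted p = 0.00012) and by 2.37 under Wnt-C59 (adjusted p = 0.00024), and Icam1 by 1.87 (adjusted p = 2.8e-05) under the combination and by 1.58 (adjusted p = 0.00011) under Wnt-C59.

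Jak2 was the one gene of the 9 with treated levels below syngeneic skin, at 34.4 ± 7.54 CPM under the combination and 34 ± 2.09 CPM under Wnt-C59, against 46.8 ± 7.2 CPM in syngeneic skin. The Wnt-C59 libraries all lay below the syngeneic ones, and the share of all genes with such separation downward is not given here. Neither difference passed (adjusted p = 0.069 for the combination and 0.06 for Wnt-C59), although DESeq2 called that of Wnt-C59 (0.045), and that of the combination was called without combination library 3 (log2 difference −0.55, adjusted p = 0.04). Without the GC trend the log2 differences of Jak2 were 0.15 for the combination and 0.03 for Wnt-C59, on the other side of 0. Jak1 averaged 115 ± 21.7 CPM under the combination and 125 ± 9.14 CPM under Wnt-C59, against 110 ± 13.6 CPM in syngeneic skin (adjusted p = 0.72 for the combination and 0.29 for Wnt-C59).

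Ido1 was at least 3.3-fold higher under the combination and at least 5.32-fold higher under Wnt-C59 than in syngeneic skin, at the same floor of 3 counts per syngeneic library. Acod1 had a ratio to syngeneic skin of 56 under the combination (95% counting interval 18.8 to 274) and of 117 under Wnt-C59 (interval 39.8 to 572). Both enzymes were detected in all 8 treated libraries and were called in both groups. Without the highest treated library the fitted log2 fold change of Ido1 was 5.58 against 6.24 for the combination and 6.13 against 6.90 for Wnt-C59, and that of Acod1 was 5.39 against 6.64 for Wnt-C59. The calls of Acod1 were lost with limma-voom (adjusted p = 0.15 for the combination and 0.14 for Wnt-C59). Ifng was also above syngeneic skin, by 3.35 on the log2 scale under the combination (adjusted p = 0.0043) and by 3.58 under Wnt-C59 (adjusted p = 0.003), though Wnt-C59 library 4 was within the syngeneic range at 1 count. With a leukocyte score as a covariate, 0 of the 9 genes were called under the combination, where 0.123% of all genes were, and 2 under Wnt-C59, where 8.28% were.

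Per kilobase of the longest transcript, the order of levels in allogeneic skin was Irf1 (76.5 CPM per kilobase), Ifngr1 (56.4), Jak1 (45.8), Acod1 (24.4), Jak2 (22.2), Ifngr2 (17.2), Irf8 (13.9), Socs1 (10.5) and Ido1 (1.88). The place of Acod1 was set by allogeneic library 1, since its coefficient of variation was 122%. In syngeneic skin Ifngr1 (26.4) and Jak1 (22.3) came first, and Irf1 (9.92) lay between Ifngr2 (10.4) and Jak2 (9.31). In treated skin Irf1 and Ifngr1 had the highest levels, at 58.3 and 51 CPM per kilobase under the combination and at 62.1 and 63.9 under Wnt-C59. The neighbours Jak2 and Ifngr2 in allogeneic skin, and Irf1 and Ifngr1 in treated skin, were closer than the spread of their libraries.

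Within a group, some libraries were the highest or the lowest for several of the 9 genes. Wnt-C59 library 1 was the highest of its group for 7 of the 9 genes and combination library 2 for 6. Wnt-C59 library 2, combination library 4 and allogeneic library 2 were each the lowest of their group for 6. The share of all genes that were highest or lowest in each library was not counted. These counts therefore describe the libraries and show nothing particular to the 9 genes. Irf1, Irf8 and Socs1 were highest in the same library of each treated group, Wnt-C59 library 1 and combination library 2, as was Ifng. The summed leukocyte markers were also highest there, at 556 and 1050 CPM. So were the T cell sum (59.8 and 84.1 CPM) and the cytotoxic sum (26.7 and 34.1 CPM). The macrophage sum was highest in combination library 2 (2430 CPM) but in Wnt-C59 library 5 (1721 CPM). The part of cell content in this order was not tested. The spread within a group differed by gene: under Wnt-C59 the coefficient of variation was 2.66% for Ifngr1, 6.15% for Jak2 and 7.28% for Jak1, against 50.9% for Irf1 and 54.8% for Socs1.

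Across all 15 libraries, the genes with patterns most like those of 5 members were found among 14103 tested genes, by the root mean square (RMS) difference of log2 CPM after centring each gene on its own mean. Irf8 and Socs1 were nearest to each other, at an RMS difference of 0.26, and both had Rac2 (0.27 for Irf8 and 0.35 for Socs1) and Unc93b1 (0.27 and 0.37) next. Irf1 was nearest to Slc11a1 (0.33), Il2rg (0.4) and Psmb9 (0.42). Ido1 was nearest to Gbp8 (0.57), Cd22 (0.6) and Gbp2 (0.62), and Acod1 to Sprr2d (0.86), Clec4e (0.9) and Sprr2i (0.92). The SD of log2 CPM over the libraries was 1.1 for Irf8, 1.12 for Socs1, 1.3 for Irf1, 1.87 for Ido1 and 3.11 for Acod1. The RMS differences of different members are therefore not on one scale. Rac2 is also one of the 8 leukocyte markers. The points share libraries, groups and cell content, and the reads of the Gbp and Sprr2 families may be split among near-identical copies.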

How the data were processed

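The table that the authors deposited holds estimated counts per gene and library, with no scaling, under Ensembl mouse identifiers, per the file headers. The submitters' processing notes list FastQC, HISAT2, featureCounts and Trim Galore, give no versions and name build GRCm39. A strand setting is not given in the sources used here. Identifiers were matched to symbols, lengths and GC content in GENCODE release M21 of build GRCm38, which differs from the study's build, so that no gene coordinates are given apart from those of the RefSeq promoters.

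Estimated counts, where the design had assumed whole counts, were rounded and fitted in edgeR 4.0.16 (R 4.3.3) with TMM scaling, filterByExpr by group and a robust quasi-likelihood model over all 15 libraries. The group was the only term, and p-values were adjusted by Benjamini-Hochberg over the 18651 genes tested in each comparison. Alternatives were RLE scaling, no filter on low counts, DESeq2 1.42.0, limma-voom (limma 3.58.1), a fit of only the groups compared, a leukocyte or an adipocyte marker score as a covariate, removal of the GC trend (97.7% of the tested genes had a GC value), a replicate block and leaving out each library. The steps were tested on simulated counts. Treated libraries are numbered by their columns, which are not the numbers of the sample titles.

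The 9 genes, the lists and the tests were chosen with earlier results of these data known. The named genes were the 9 members, Ifng and up to 3 called genes per list and comparison in order of adjusted p. Psmb9 and Tap1 in treated against allogeneic skin fall outside this rule and were named after their values were seen. The same holds for Nos2 under the combination and Cxcl9 under Wnt-C59, against allogeneic skin. A gene that the design lists is not reported here.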

Additional observations from a re-analysis of the deposited data

Results flagged for a closer look

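Of 27 sets of 4 libraries (9 genes in 3 groups), 2 held a library far from the other 3 by Dixon's test at the 95% level, a rate at which chance gives about 1 in 20. Socs1 was at 56.3 CPM in combination library 2, against 19.3 to 24.3 CPM in the other combination libraries. Acod1 was at 0 CPM in syngeneic library 2, against 0.0441 to 0.0459 CPM in the other syngeneic libraries, which is a difference of 1 count.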

How the results depend on the processing

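Of 842 values of single genes among the 9 under alternatives, 744 kept their direction and their side of the threshold, 56 lost and 12 gained a call, and 30 turned direction, 29 of them not called in either setting. The covariates changed the counts most. With the leukocyte score, members called were 0 for allogeneic against syngeneic, 3 for the combination and 1 for Wnt-C59 against allogeneic, and 0 for the combination and 2 for Wnt-C59 against syngeneic. Genes called over the table were then 29 for allogeneic against syngeneic, 23 for the combination and 1545 for Wnt-C59 against syngeneic. With the adipocyte score, members called against allogeneic were 0 for the combination and 1 for Wnt-C59, and genes called were 2384 (allogeneic against syngeneic), 3422 (combination against allogeneic) and 4168 (Wnt-C59 against allogeneic). The scores move with the groups, so what they remove cannot be told apart from the group.

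Values that turned direction with the leukocyte score were Stat3 (−0.14) and Nmi (−0.57) in allogeneic against syngeneic, Irf8 (0.22) and Socs1 (0.36) in the combination and Irf1 (0.42), Irf8 (0.08), Socs1 (0.27) and Ido1 (0.53) in Wnt-C59 against allogeneic, Jak2 between treated groups (−0.22), and Jak1 against syngeneic (−0.62 for the combination and −0.27 for Wnt-C59). Without the GC trend Pias1 turned in both treated groups (0.10 for the combination and 0.08 for Wnt-C59), as did Jak2 against syngeneic (0.15 for the combination and 0.03 for Wnt-C59) and Ifngr1 in the combination against allogeneic (0.01). Socs1 in the combination against allogeneic turned without the filter (0.06), and Ifng (0.27) and Jak2 (−0.00) between treated groups turned with limma-voom. Removing the GC trend shifted the median of all genes to 0.13 (Wnt-C59) and 0.11 (combination) against syngeneic. For the combination against Wnt-C59, 43 genes were called, with 1516 by DESeq2, 65 by limma-voom and 18 in a fit of those groups alone. The cause was not tested.

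Leaving out 1 library at a time, members called ran from 9 to 9 (allogeneic against syngeneic), 4 to 5 (combination) and 3 to 7 (Wnt-C59) against allogeneic, 0 to 0 between treated groups, and 6 to 8 (combination) and 6 to 7 (Wnt-C59) against syngeneic. Genes called ran from 3905 to 5076 (allogeneic against syngeneic), 8901 to 9814 (combination) and 7942 to 9295 (Wnt-C59) against allogeneic, 1 to 45 between treated groups, and 8689 to 10238 (combination) and 8242 to 9939 (Wnt-C59) against syngeneic. Turns of direction, all without a call, came for the combination against allogeneic in Ifngr1 (−0.22 to 0.01), Irf8 (−0.33 to 0.10) and Socs1 (−0.49 to 0.17), and between treated groups in Jak2 (−0.09 to 0.12), Irf1 (−0.29 to 0.29), Ido1 (−1.29 to 0.11), Acod1 (−1.53 to 0.12) and Ifng (−0.75 to 0.35). The count of 3 was without allogeneic library 1, and the count of 1 without combination library 3.

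A replicate block was possible for allogeneic against syngeneic only, since the treated columns carry no title numbers. The deviations of same-numbered libraries had correlations of r = −0.05, −0.14 and 0.01. Such values cannot show whether the numbers pair libraries, and the labels do not say. With the block, 2968 genes and 8 of the 9 members were called, and Ifngr2 was not (adjusted p = 0.059). Ido1 and syngeneic Acod1 rest on few counts, which limits them. The same limit holds for Eomes, Ido2 and Ifng, which had 47 counts under the combination and 49 under Wnt-C59.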
